A study of Homo sapiens with 3 samples.

Results

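The genes BCL2A1 and DAPK1 were 2 of the 82 genes that carried a specific DKK-1 binding site in a ChIP-seq experiment on human colon cancer cells. They were taken by name from the authors' list of 200 specific sites, 83 of which had been given a gene. Their loci were then defined as the RefSeq transcript in that list with 100 kb added on each side, and every peak of the complete lists that touched such a window was included. The specific sites had been selected by the authors' peak values, so the values of the BCL2A1 and DAPK1 sites are a description and were not tested.

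The cells were DLD-1, a human colorectal adenocarcinoma line that according to the study does not express DKK-1 of its own. DLD-1/DKK-1 cells had received a doxycycline-inducible lentiviral construct encoding human DKK-1 with a V5 tag and green fluorescent protein, and DLD-1/Mock cells were the control line. Immunoprecipitates of both lines and a pool of input DNA were sequenced, 1 library each. Filtering to at most 2 tags per position left 21312041 DLD-1/DKK-1 tags, 27723787 input tags and 24151009 DLD-1/Mock tags. Peaks had been called separately, with DLD-1/Mock as the control (the Mock list) and with the input pool as the control (the input list). The records name an antibody against V5 and the study's methods an antibody against DKK-1, and whether doxycycline was present during the immunoprecipitation is not given in the sources used here. The labels do not say which cells entered the input pool. With no replicate, the spread between libraries of the same condition is unknown. Counting error is given for DLD-1/DKK-1 tags only, and the control backgrounds carry no interval.

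DKK-1 is best known as a secreted antagonist of Wnt signalling that binds LRP coreceptors at the cell surface. The study asked which genes the nuclear fraction of the protein occupies. Apoptosis through mitochondria is governed by the BCL2 family, in which prosurvival members hold proapoptotic members in check. BCL2A1, also called BFL1, is a prosurvival member that is induced by NF-κB and is most abundant in blood cells. DAPK1, death-associated protein kinase 1, is a calmodulin-regulated serine/threonine kinase of the cytoskeleton that promotes cell death and autophagy, and its promoter is methylated in many tumors. The genes therefore have opposite roles, the former protecting cells from apoptosis and the latter favoring it.

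The loci also differed in their promoters. The sequences at the start of each gene are shown because a peak covered the start of BCL2A1 and none covered that of DAPK1. They are the 250 bases before the annotated start in RefSeq (GRCh38.p14), 5′ to 3′ on the strand of the gene. The BCL2A1 promoter lies at chr15:79971197-79971446 on the minus strand, with a TATAAA in capitals. For DAPK1 RefSeq gives 2 starts. The more upstream lies at chr9:87497617-87497866 on the plus strand, with CCAAT and GGGCGG in capitals, both written there as the reverse complement.
BCL2A1: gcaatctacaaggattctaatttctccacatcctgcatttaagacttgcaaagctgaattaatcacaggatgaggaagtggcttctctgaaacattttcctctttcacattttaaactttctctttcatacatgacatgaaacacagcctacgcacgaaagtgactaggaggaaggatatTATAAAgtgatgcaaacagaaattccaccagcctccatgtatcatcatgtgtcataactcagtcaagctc
DAPK1: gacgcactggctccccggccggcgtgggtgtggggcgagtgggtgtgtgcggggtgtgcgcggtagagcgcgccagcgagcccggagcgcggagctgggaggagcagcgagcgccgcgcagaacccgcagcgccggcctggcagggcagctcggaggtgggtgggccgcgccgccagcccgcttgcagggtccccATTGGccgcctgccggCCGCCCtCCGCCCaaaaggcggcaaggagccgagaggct

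With the 50 bases after the start included, the BCL2A1 promoter had a GC content of 41.0% and 2 CpG dinucleotides, below the medians of 58.7% and 14 over 35116 promoters of the same length. The DAPK1 promoter had a GC content of 75.3% and 37 CpG dinucleotides, and at the second DAPK1 start the values were 71.7% and 33. Letters of 5 motifs were searched on both strands of these 300-base windows. TATAAA occurred once in the BCL2A1 promoter, with its first base 70 bases upstream of the start, and in 11.5% of all promoters. It was in neither DAPK1 window. CCAAT occurred once in the upstream DAPK1 window (34.6% of all promoters) and GGGCGG occurred 2 times there and once at the second DAPK1 start (45% of all promoters). TGANTCA, the AP-1 site, and CTTTGA, a TCF/LEF core, were in none of the 3 windows and in 7.71% and 12.9% of all promoters. The motifs did not overlap each other. The peaks are in hg18 coordinates and were not placed on these sequences. Whether these annotated starts are the same bases as the transcript starts in hg18 was not checked.

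The window of BCL2A1 measured 210.4 kb and held 1 peak of the Mock list and 2 of the input list, with 1 peak in common. The window of DAPK1 measured 410.8 kb and held 4 peaks of either list, and these were the same 4 peaks with identical coordinates. Over the whole genome, 48.1% of the Mock list was also in the input list, and 60.4% of the input list was also in the Mock list. At these loci the counts were 5 of 5 and 5 of 6, but the 2 specific sites had been selected for being in both lists. Without specific sites the counts were 3 of 3 and 3 of 4, all 3 at DAPK1, and the shares over the whole genome were 46.5% and 58.8%. The ChIP tags are the same in either list, so a shared peak was observed in 1 library and measured against 2 backgrounds. Of the 6 peaks, 4 lay in introns, 1 lay across the transcript start of BCL2A1 and 1 lay upstream of DAPK1, while none lay downstream of either gene.

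**Figure D1:**
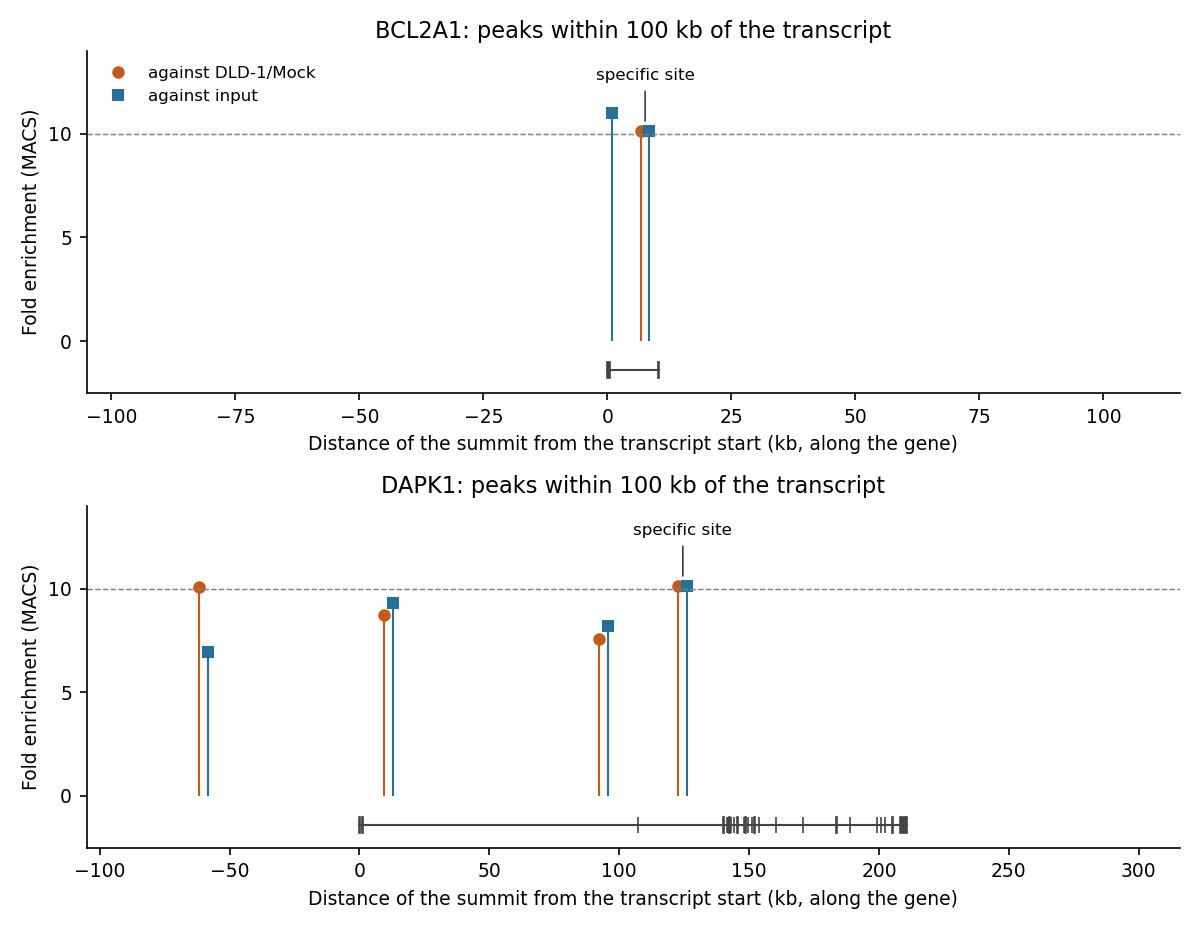
Fold enrichment of each peak (vertical axis) against the distance of its summit from the transcript start in kb, for the BCL2A1 window (top) and the DAPK1 window (bottom). Circles are values against DLD-1/Mock and squares values against input, drawn slightly to either side of the summit. The dashed line is a fold enrichment of 10, and the line with bars under each plot is the transcript with its exons. The BCL2A1 start peak has a square only, whereas each of the 4 DAPK1 peaks has both symbols.

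The BCL2A1 transcript, NM_004049, occupied chr15:78040287-78050697 on the minus strand of hg18 and had 2 exons, separated by an intron of 9526 bp. The specific site was chr15:78042943-78043248, inside that intron. It was 306 bp wide, and its summit lay 157 bp into the site and 7598 bp downstream of the transcript start, 73.0% of the way along the transcript. The nearest exon was exon 2, 2373 bp from the edge of the site. The site held 13 tags (95% Poisson interval 6.92 to 22.23), where 2.42 were expected at the genome-wide background of 1.184 tags per 150 bp. Its score, the −log10 of the MACS P value multiplied by 10, was 65.52 with either control, and its fold enrichment was 10.14 with either. The empirical FDR, which MACS estimates by swapping ChIP and control, was 41.75% in the Mock list and 95.75% in the input list. A higher score was given to 27.2% of the Mock list and to 23.6% of the input list. A lower FDR was given to 1345 of the 6631 peaks in the Mock list and to 4046 of the 5281 in the input list. The lowest FDR of any specific site was 33.17% in the Mock list and 65.77% in the input list.

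The second BCL2A1 peak, chr15:78050287-78050923, covered the transcript start and was called against input only. It was 637 bp wide and reached from 226 bp upstream of the start through the 182 bp of the 5′ UTR and 229 bp into the coding part of exon 1. The summit was in the 5′ UTR, 137 bp downstream of the start and 45 bp before the coding sequence. With 23 tags (95% Poisson interval 14.58 to 34.51) it held the most tags of the 6 peaks of both loci, and its interval overlapped that of the 13 tags of the intronic site. Its score against input was 90.46, its fold enrichment was 10.98 and its FDR was 100%. It was 7038 bp away from the specific site, and no other peak lay between them. Against input, the start of BCL2A1 thus had a higher fold enrichment and score than the specific site of the gene, but the peak was in neither the Mock list nor the specific list. The specific site had 12 tags at its summit, which allow a fold enrichment of 5.24 to 17.7 by counting error, so the 2 peaks were not distinguishable in this respect.

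**Figure D2:**
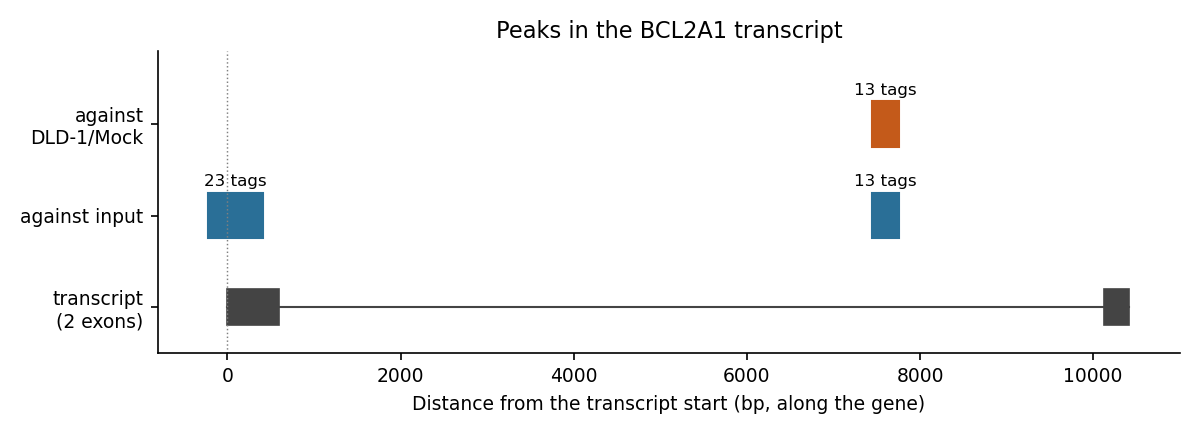
Position of the peaks in the BCL2A1 transcript in bp from its start, along the direction of transcription. Boxes span the full width of each peak in the list against DLD-1/Mock (top row) and the list against input (middle row), with their ChIP tag counts above them, and the bottom row shows the 2 exons. The 23-tag peak at the start is present only in the list against input.

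The background that MACS had used could be recalculated from the deposited values. For peaks of 300 to 700 bp, the score was solved for the expected number of tags, with the tags of the peak taken as a Poisson count over its width. Multiplying the result by the fold enrichment gave the number of tags at the summit, which was within 0.1 of a whole number for 96.2% of 5511 peaks in the Mock list and 96.1% of 4415 in the input list. The procedure did not hold outside that range of width, where 12.7% to 31.2% of the peaks gave whole numbers. At the BCL2A1 site the expected number was 1.184 tags per 150 bp against either control, which is the genome-wide background, and the summit held 12 of its 13 tags, or 92.3%. At the start peak the background against input was also the genome-wide value, and the summit held 13 of the 23 tags.

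For the start peak to miss the P value cut-off of 1e-05 against DLD-1/Mock with the same 23 tags, the expected number had to be at least 2.00 tags per 150 bp, which is 1.69 times the genome-wide background. The fold enrichment against DLD-1/Mock was then at most 6.49. This bound assumes that the same interval was evaluated with both controls, as it was for every shared peak. The lists do not give the DLD-1/Mock tags themselves. Over all 82 genes of the specific sites, BCL2A1 was the one gene with a peak across its transcript start against input only. MKLN1 and WDR34 had such a peak in the Mock list only, CUEDC2, ITGB1BP2 and VPS13B had one in both lists, and 76 genes had none. This pattern was chosen after the values had been seen. At CUEDC2 the start peak was the only peak of the window, so it is the specific site and was shared by selection. Whether the start peaks of ITGB1BP2 and VPS13B are also specific sites was not examined.

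**Figure D3:**
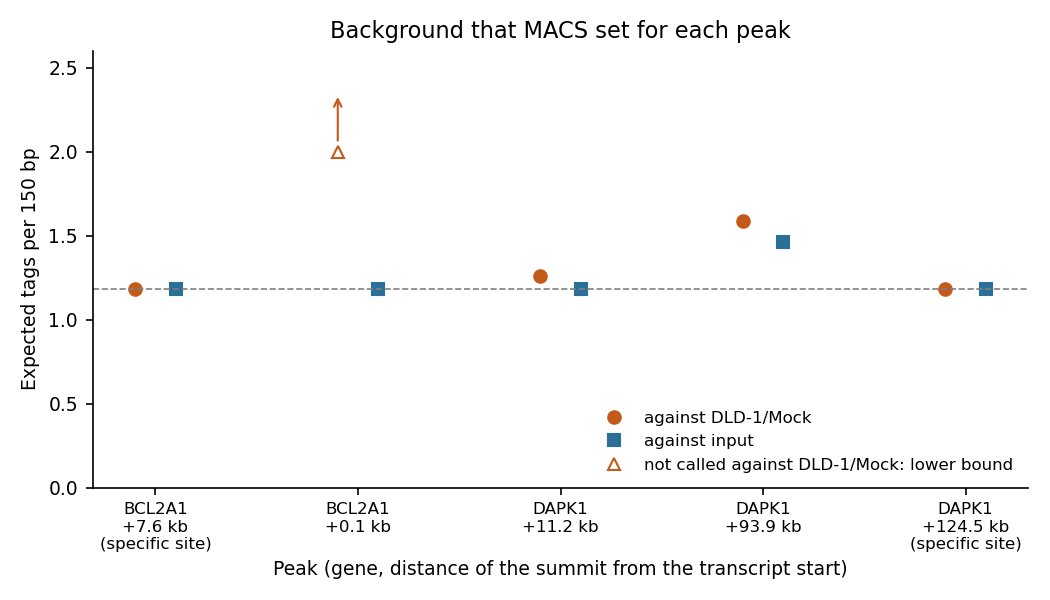
Expected tags per 150 bp that MACS had set as background for each of the 5 peaks of at least 300 bp (vertical axis), recalculated from the score, with the gene and the distance from the transcript start below each peak. Circles are against DLD-1/Mock, squares are against input and the dashed line is the genome-wide value of 1.184. The open triangle with an arrow is the lower bound of 2.00 for the BCL2A1 start peak, which was not called against DLD-1/Mock.

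The DAPK1 transcript, NM_004938, occupied chr9:89302576-89513368 on the plus strand of hg18. It was 210.8 kb long and had 26 exons that made up 2.8% of its length. The specific site was chr9:89426802-89427335, in intron 3, which is 32.8 kb long. It was 534 bp wide with its summit 287 bp into the site, 124.5 kb downstream of the transcript start and 59.1% of the way along the transcript. Exon 4 was the nearest exon, 15343 bp away. The site held 17 tags (95% Poisson interval 9.9 to 27.22), with 4.22 expected at the genome-wide background. The score was 62.83 and the fold enrichment 10.14 with either control, while the FDR was 43.55% in the Mock list and 86.79% in the input list. A higher score was given to 33.3% of the Mock list and to 29.6% of the input list. A lower FDR was given to 2011 peaks of the Mock list and to 3721 of the input list. The expected number of tags was again the genome-wide value of 1.184 against either control, and the summit held 12 of the 17 tags, or 70.6%.

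The other 3 peaks of the DAPK1 locus lay closer to the start of the gene or before it. The peak chr9:89313605-89313947 was in intron 2, 11.2 kb downstream of the start, and held 13 tags over 343 bp. Its fold enrichment was 8.75 in the Mock list and 9.29 in the input list. The summit held 11 tags, which at the genome-wide background give the latter value. Against DLD-1/Mock the background was 1.06 times the genome-wide value.

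The peak chr9:89396303-89396602, also in intron 2 and 93.9 kb downstream of the start, held 13 tags over 300 bp. With 12 tags its summit was as high as that of the specific site, but its fold enrichment was 7.55 in the Mock list and 8.19 in the input list. The expected tags were 1.34 times the genome-wide background with DLD-1/Mock as the control and 1.24 times with input. With equal summits, this peak and the specific site differed in fold enrichment by their control background. Intron 2 was the longest of the 25 introns at 105.8 kb, and introns 2 and 3 held the 3 peaks of the transcript. Downstream of the specific site, no peak was present in the window in either list.

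The fourth peak, chr9:89242455-89242675, was 60.0 kb upstream of the DAPK1 start. It was the narrowest of the locus at 221 bp and held 12 tags (95% Poisson interval 6.2 to 20.96). Its score of 91.15 against DLD-1/Mock was the highest of the DAPK1 locus, and its fold enrichment there was 10.07. At this width the recalculation from the score did not hold. Whether this score is comparable with those of the wider peaks was not tested. Against input the score was 67.99 and the fold enrichment 6.94, so the expected background at this position was 1.45 times as high with input as with DLD-1/Mock. It passed a fold enrichment of 10 against one control and missed it against the other. By the order of protein-coding genes in GRCh38.p14, the neighbor of DAPK1 on this side is GAS1, a growth arrest gene, and on the other side CTSL, which encodes the protease cathepsin L. BCL2A1 is flanked by ST20-MTHFS and ZFAND6.

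The 4 DAPK1 peaks held 12, 13, 13 and 17 tags, and every interval overlapped the others. The summits were 71.2, 82.7 and 30.6 kb apart. They were thus spread over the first part of the locus and formed no cluster around the specific site. Another peak with 14 tags lay 139.3 kb upstream of the start, just outside the window, and was called against input only.

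Among the 5 peaks of these loci in the Mock list, 3 had a fold enrichment of at least 10, compared with 9.12% of that whole list. In the input list it was 3 of 6, compared with 9.6%. With either control it was 2 of the 5 shared peaks, compared with 6.27% of all shared peaks. The loci had been chosen for sites that pass this threshold, so nothing can be read from these counts. At the threshold itself, the lowest fold enrichment of any specific site was 10.01, and the shared peak nearest below it reached 9.98. At the genome-wide background 11 summit tags give 9.29 and 12 give 10.14, so the BCL2A1 and DAPK1 sites would each have missed the threshold with 1 tag fewer. All fold enrichments of the 6 peaks were within the interval of 5.24 to 17.7 that 12 tags allow at the genome-wide background. That interval covers the counting error of the ChIP tags only. It does not cover differences in control background, by which some of these fold enrichments differed.

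**Figure D4:**
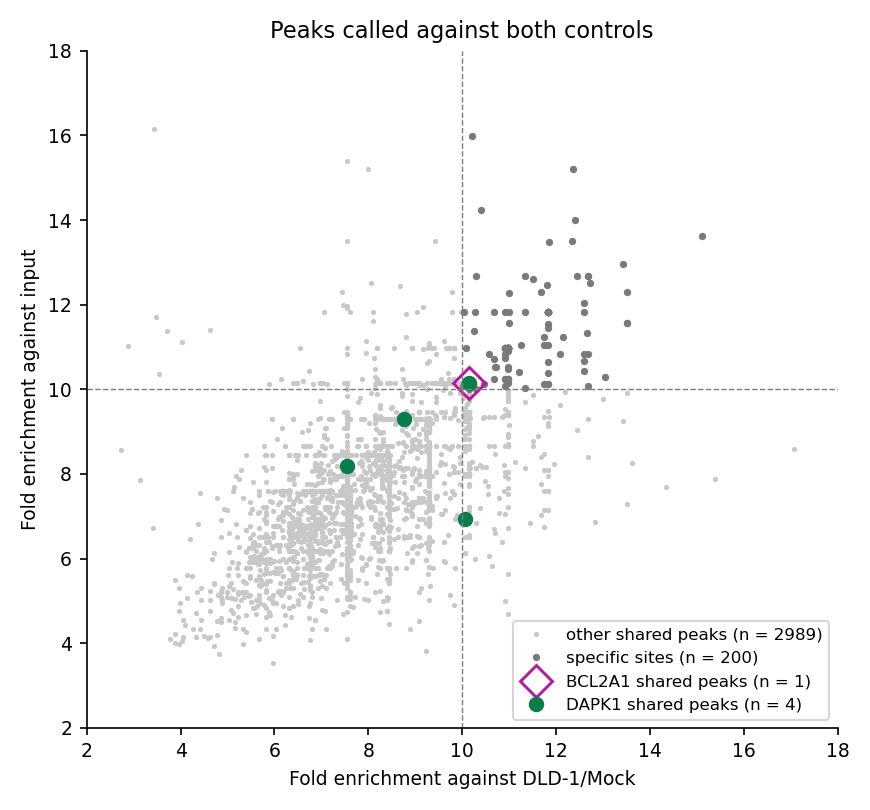
Fold enrichment against DLD-1/Mock (horizontal axis) and against input (vertical axis) of all peaks called against both controls. Pale points are shared peaks outside the specific list, dark points are the 200 specific sites, the open diamond is BCL2A1 and filled circles are the 4 DAPK1 peaks, with dashed lines at 10. The specific sites of BCL2A1 and DAPK1 fall on the same point, 10.14 on both axes, and the other DAPK1 peaks lie below 10 on at least one axis.

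Of the 200 specific sites, 65 had a fold enrichment of 10.14 with either control, and 26 of these 65 had a gene. BCL2A1 was narrow within that group, with 13 sites narrower and 51 wider, and DAPK1 was wide, with 50 narrower and 14 wider. By tags, 12 of the 65 had fewer than BCL2A1 and 38 had more, whereas 48 had fewer than DAPK1 and 12 had more. The score of BCL2A1 was nevertheless the higher of the pair, with its 13 tags in a shorter interval, at 4.25 tags per 100 bp against 3.18 for DAPK1. Among all 83 sites with a gene, 4 had fewer tags than BCL2A1 and 73 had more, and 7 were narrower. Among sites with a gene, those with the same tags and fold enrichment as BCL2A1 were LOC440434, LONP1, PRKG1 and SNTG1, with widths of 353 to 413 bp and scores of 50.67 to 58.32. Those with a gene and the values of DAPK1 were EYS and ITGB1BP2, with widths of 413 to 573 bp and scores of 58.57 to 79.03. The counts of 13 and 17 tags are not distinguishable by their intervals.

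In the same window, the 82 genes of the specific sites held a median of 2 peaks in the Mock list (range 1 to 56) and of 2 in the input list (range 1 to 35). BCL2A1 was among the 31 genes with a single peak in the Mock list. DAPK1 was exceeded by 22 genes in the Mock list and by 18 in the input list, and on chromosomes other than 8, which carries many peaks, by 12 and 9 of 70 genes. Per length of window, BCL2A1 had 4.75 peaks per Mb in the Mock list and 9.51 in the input list. DAPK1 had 9.74 per Mb in either list. Between their first and last peaks, chromosome 15 had 1.45 peaks per Mb in the Mock list and 1.16 in the input list, and chromosome 9 had 4.43 and 2.36. Each window was chosen for a peak, so the density within it could not fall to 0, and the short window of BCL2A1 rests on 1 or 2 peaks. Outside the windows, the nearest peaks to BCL2A1 were 541.2 kb away on one side in both lists and, on the other side, 1639.6 kb away in the Mock list and 399.2 kb away in the input list.

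Within 100 kb, the peaks at DAPK1 were completely shared between the lists. With 200 kb on each side the input list held 5 peaks there, of which 4 were shared. The window of each gene was chosen for a site that is in both lists by selection, so 1 of the 4 peaks was shared by construction. Every peak of the window was in both lists for 34 of the 82 genes, but 21 of these had a single peak, which is the selected site. Among the 28 genes with at least 3 peaks besides specific sites in the window, DAPK1 was the one for which all of these were shared. That cut of 3 is the number at DAPK1 itself. EPHA3 and TMF1, with 3 peaks each in the window, were also completely shared. On chromosome 9 as a whole, 37.8% of the Mock list was also in the input list, and 70.3% of the input list was also in the Mock list. This comparison was also chosen after the values had been seen and was not tested.

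**Figure D5:**
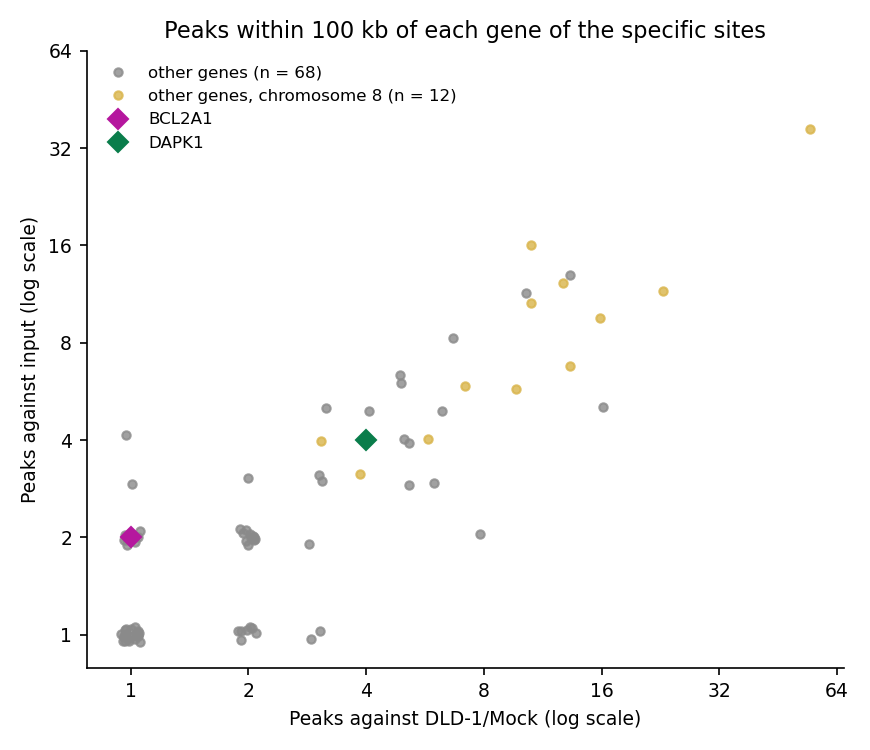
Number of peaks within 100 kb of each of the 82 genes of the specific sites, in the Mock list (horizontal axis) and in the input list (vertical axis), both on log scales. Circles are the other 80 genes, moved slightly at random so that they can be told apart, with the 12 on chromosome 8 in yellow, and diamonds are BCL2A1 (1 and 2 peaks) and DAPK1 (4 and 4 peaks).

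The genes of the specific sites were also compared with a list of 71 genes of the apoptosis machinery. Of these, 2 were present, BCL2A1 and DAPK1 themselves, and matching through other symbols added none. Over all 20056 protein-coding RefSeq genes, 0.369% had a specific site. The pair defines the loci described here, so nothing can be read from the count. The BCL2 family was represented by 1 of 20 genes, without its prosurvival members BCL2, BCL2L1 and MCL1 or the effectors BAX and BAK1. Of 7 death-associated protein kinases and partners only DAPK1 was present, and DAPK2 and DAPK3 were not. No gene was present of the 15 death receptors, ligands and adaptors or of the 14 caspases and apoptosome genes. The last group of 15 also had none. It held inhibitors of apoptosis and their antagonists, together with AIFM1, ENDOG, DFFA and DFFB. Absence from the specific list does not mean that these genes had no peak, since their positions in hg18 were not used here.

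The lists give positions and tag counts and hold no measurement of BCL2A1 or DAPK1 expression.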

How the data were processed

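The authors aligned 40 bp reads to hg18 with ELANDv2 in CASAVA 1.7, kept unique alignments and called DLD-1/DKK-1 peaks with MACS 1.4.0beta, separately for each control (P value cut-off 1e-05, fragment size 150 bp, at most 2 tags per position). Tags per peak are counts as deposited. The score is the −log10 of the P value multiplied by 10 and was deposited as written by MACS. Fold enrichment is a ratio and the FDR a percent, both from the authors' lists.

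Windows, distances and overlaps (at least 1 bp) were computed with pandas 2.3.3, scipy 1.17.1 and numpy 2.4.6 under Python 3.11.15, counting positions from 1. Transcripts and exons were those of the specific list. A summit was placed at the start plus its offset minus 1. Overlap and recalculation of the background were checked on simulated peaks. Poisson intervals are exact at 95% and cover counting error only, since PCR copies are not independent molecules. No test was made, as there was 1 library per condition. The genes, the apoptosis list and the motifs were chosen with earlier results of these data known. The genes named were BCL2A1, DAPK1, members of the apoptosis list with a site, and genes whose site had the same tags and fold enrichment. Genes with a peak across their start, EPHA3 and TMF1 were named after their values were seen. Alternatives varied the window, the thresholds and the definition of a shared peak. The peaks' own sequences were not read, since no hg18 genome was used here.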

Additional observations from a re-analysis of the deposited data

How the results depend on the processing

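Each count of peaks, density and distance to an exon counted as unchanged when it stayed within 1.5 times its value. Of 46 values under alternatives, 38 were unchanged and 8 moved. For DAPK1, a P value of 1e-06 or less left 2 peaks in the Mock list, 2 in the input list and 2 shared, while a fold enrichment of at least 10 left 2 in the Mock list, 1 in the input list and 1 shared, since fewer peaks pass a stricter threshold. For BCL2A1, neither filter changed a count. With 200 kb on each side, the density at BCL2A1 was 2.44 peaks per Mb in the Mock list and 4.87 in the input list, as the longer window added no peak. The transcript alone, 50 kb on each side, summits in place of overlap and both stricter definitions of a shared peak left the counts within the limit. Distances from the summit also stayed within it. Density was recalculated with 200 kb on each side only. The shorter windows held the same BCL2A1 counts, so the density of that gene is higher in them than with 100 kb. With counts this small, the limit passes over the gain or loss of a peak. DAPK1 had 3 peaks in either list with the transcript alone or with 50 kb on each side. With 200 kb on each side it had 4 in the Mock list and 5 in the input list, at 6.55 and 8.19 per Mb. The depth limits any order among the 6 peaks, whose counting intervals overlap. No paired analysis was possible because there were no replicates to pair.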
